A study of Mus musculus with 9 samples.

Results

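The genes described here are 10 components and response genes of BMP and Nodal signalling in mouse ES cells, namely Bmp4, Smad6, Smad7, Id1, Id2, Id3, Nodal, Tdgf1, Lefty1 and Lefty2. They were taken by gene symbol from the table of read counts. The rule uses no measured value, but the list was drawn up with earlier results of these data known. All 10 were among the 20189 genes of the table and among the 20143 genes tested. E14 cells, a line of wild-type mouse ES cells, were kept for 3 h in medium without Thr or without Cys, or left unstarved, and poly(A) RNA was sequenced from 3 libraries of each of the 3 groups. Per the labels, the cells were seeded a day earlier and grown with LIF and serum. The labels describe the starvation medium for Arg and Leu only, with dialyzed serum and LIF, and its counterpart with every amino acid for the controls. That Thr or Cys was left out rests on the sample titles, and the serum content of those media for these libraries is not given in the sources used here. All groups thus share 1 cell line and 1 genotype, and the starved groups share 1 time point. No time in medium is listed for the unstarved libraries. The labels do not say whether the libraries of a group came from separate cultures, so the p-values measure the spread between these libraries, which may be technical. In bulk RNA, fewer cells that express a gene and less RNA of it per cell cannot be told apart.

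BMP4 and NODAL are secreted ligands of the TGF-beta superfamily. BMP4 binds type I and type II receptors that phosphorylate SMAD1 and SMAD5, and ID1, ID2 and ID3 are among the best known targets of these SMADs. ID proteins lack a DNA-binding domain and hold E proteins such as TCF3 away from DNA. In mouse ES cells, BMP acting through ID proteins is known to support self-renewal together with LIF. NODAL binds activin receptors with the help of the co-receptor Cripto, the product of Tdgf1, and these phosphorylate SMAD2 and SMAD3, which act with FOXH1. Lefty1 and Lefty2 are targets of this branch and encode secreted inhibitors of NODAL, whereas SMAD6 and SMAD7 are inhibitory SMADs that act inside the cell, SMAD6 mainly on the BMP branch and SMAD7 on both.

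Bmp4 and Smad6 had the largest decreases without Thr with the main settings. With the same settings, Nodal was the single member called in opposite directions in the 2 starvations. The sequences just upstream of these 3 genes are therefore shown. They come from RefSeq on the GRCm38.p6 build, which had a promoter window for 6 of the 10 members. Each is written 5′ to 3′ on the strand of its gene and ends next to the transcription start, and capitals mark a match to 1 of 5 searched motifs. Bmp4 lies on the minus strand, and its sequence is chr14:46390670-46390919.
Bmp4: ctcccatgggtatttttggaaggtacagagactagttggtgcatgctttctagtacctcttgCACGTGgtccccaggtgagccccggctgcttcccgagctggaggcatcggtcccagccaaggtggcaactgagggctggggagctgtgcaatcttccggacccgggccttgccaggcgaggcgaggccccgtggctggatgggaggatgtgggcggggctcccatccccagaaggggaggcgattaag
Smad6 also lies on the minus strand. Its sequence, chr9:64022056-64022309, runs 4 bases past the start to complete the match.
Smad6: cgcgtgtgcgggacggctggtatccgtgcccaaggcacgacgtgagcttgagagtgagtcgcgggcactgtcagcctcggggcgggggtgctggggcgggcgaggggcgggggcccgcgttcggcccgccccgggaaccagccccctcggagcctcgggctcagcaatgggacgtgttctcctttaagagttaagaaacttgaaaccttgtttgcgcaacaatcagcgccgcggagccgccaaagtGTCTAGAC
Nodal lies on the plus strand, and its sequence is chr10:61417722-61417971.
Nodal: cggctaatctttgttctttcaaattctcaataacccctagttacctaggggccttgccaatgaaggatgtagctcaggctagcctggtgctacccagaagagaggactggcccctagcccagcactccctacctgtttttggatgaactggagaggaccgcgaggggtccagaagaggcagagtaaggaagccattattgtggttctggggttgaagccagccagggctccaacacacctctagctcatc
The motifs, searched on both strands in the window of 300 bases around each start, were GGCGCC (bound by SMAD1 and SMAD5), GTCTAGAC (the palindromic SMAD box), AATNCACA (the core of the FOXH1 site), TGATGNAA (the composite site of ATF4 and CHOP) and CACGTG (an E-box). Bmp4 held CACGTG at position -188 from the start, a motif found in 7.15% of the 32851 mouse windows. Smad6 held GTCTAGAC at position -4, which 0.213% of windows hold. Id2 held GGCGCC at position -231, as do 11.9% of windows. Nodal, Tdgf1 and Id3 held none of the 5 in this window, while AATNCACA occurs in 3.60% and TGATGNAA in 3.97% of all windows. For Id2 and Id3, the 250 bases before the RefSeq start lie inside the gene as annotated by GENCODE M21. A match is a stretch of letters and not a measured binding site.

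Removal of Thr was followed by lower levels of most of these genes. After TMM normalization, edgeR's quasi-likelihood test with Benjamini-Hochberg adjustment over all genes, at an adjusted p of 0.05, called 9 of the 10 members between Thr-starved and unstarved libraries, where 63.0% of all genes tested were called. Bmp4, Smad6, Id1, Lefty1, Lefty2, Smad7 and Tdgf1 fell, Id2 and Nodal rose, and Id3 was not called. The share of members called was above that of all genes, but among the 11410 genes that averaged 5 CPM or more (counts scaled to a common library size by TMM) the share called was 80.6%. By direction, 7 members were called lower, as were 31.9% of all genes, and 2 higher, as were 31.1%. The libraries of the 2 groups did not overlap for any of the 10 members, as for 66.5% of all genes. The median log2 fold change was -0.67 over the members and -0.02 over all genes tested.

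Without Cys, 8 members were called, 7 lower and 1 higher, where 36.3% of all genes were called, 18.8% lower and 17.5% higher, and 55.0% of those that averaged 5 CPM or more. The groups did not overlap for 9 members, against 46.4% of all genes. Lefty2, Lefty1, Tdgf1, Id1, Smad7, Nodal and Bmp4 fell and Id3 rose, while Id2 and Smad6 were not called. The median log2 fold change was -0.33 over the members and 0.01 over all genes. Against Cys-starved libraries, Thr-starved libraries were called different for 9 members, 6 lower and 3 higher, where 62.0% of all genes were called, 31.6% lower and 30.4% higher. Of the genes that averaged 5 CPM or more, 80.6% were called. The groups did not overlap for 9 members, against 65.8% of all genes. Both starvation comparisons rest on the same 3 unstarved libraries, so they are not independent of each other.

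**Figure D1:**
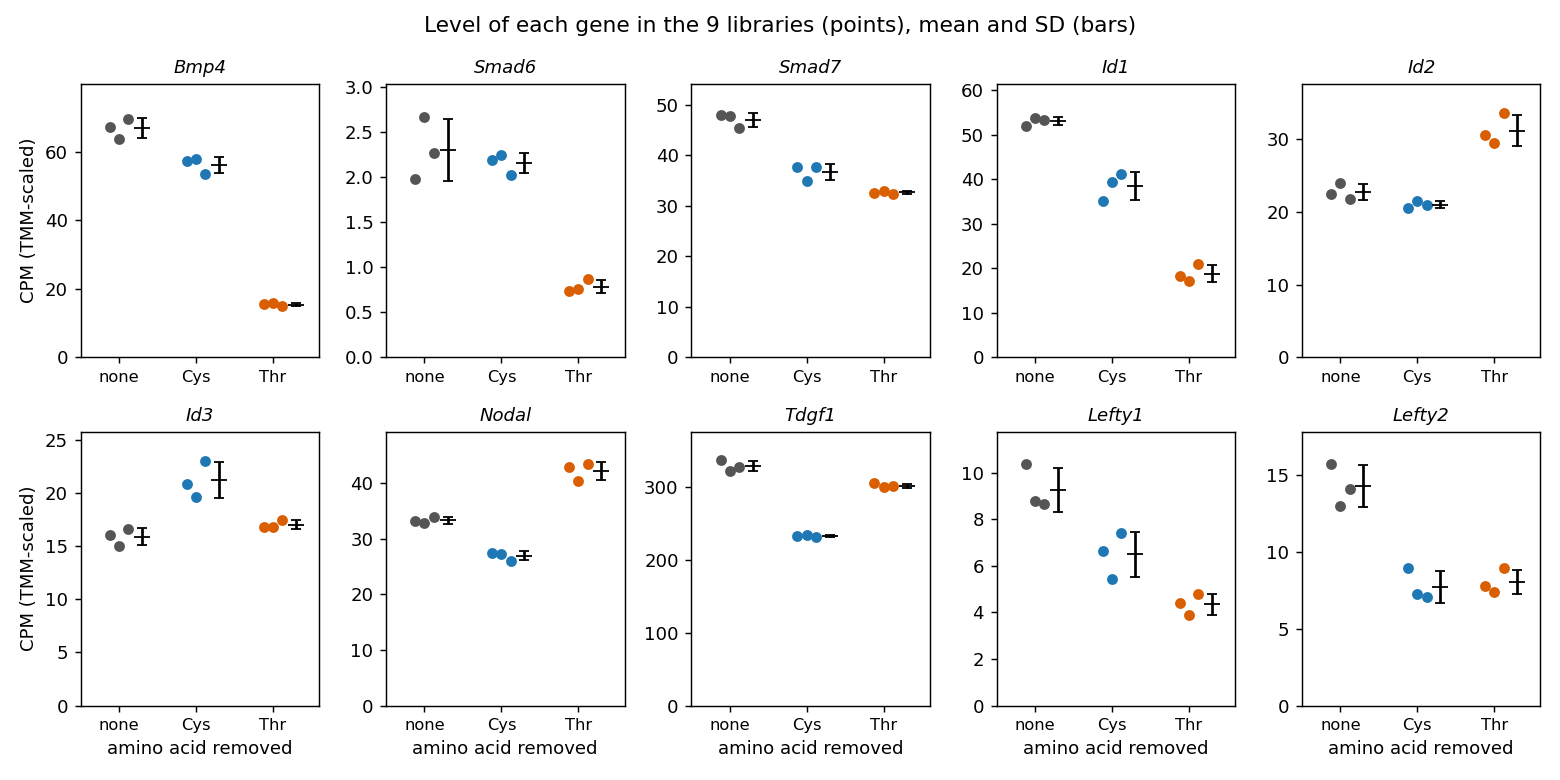
Level of each of the 10 genes in CPM (TMM-scaled) on a linear axis from 0, with 1 point per library and the mean and SD of the 3 libraries as bars, by the amino acid removed. The Thr-starved libraries lie at 14.9 to 15.9 CPM for Bmp4 against 63.8 to 69.7 CPM in the unstarved libraries, while Nodal lies highest in the Thr-starved and lowest in the Cys-starved libraries.

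Bmp4 (ENSMUSG00000021835, chr14:46383520-46390669 on GRCm38), the BMP ligand of the list, showed the largest change of the 10. Its level was 67.3, 63.8 and 69.7 CPM in the unstarved libraries, 57.3, 58.0 and 53.5 CPM in the Cys-starved and 15.5, 15.9 and 14.9 CPM in the Thr-starved libraries. The 3 groups did not overlap, and the Thr-starved libraries stood far below both others. Bmp4 fell 4.34-fold without Thr (log2 fold change -2.12, SE 0.045, edgeR adjusted p = 1.3e-20, n = 3 per group) and 1.19-fold without Cys (log2 fold change -0.25, SE 0.039, edgeR adjusted p = 2.3e-05). For comparison, 95% of genes with at least 5 CPM had an absolute log2 fold change under 1.19 without Thr and under 0.45 without Cys. The decrease of Bmp4 without Thr was thus beyond that range and its decrease without Cys within it.

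Bmp4 overlaps 2 genes on the opposite strand, and the strand setting of the counting is not given in the sources used here. Gm15217 lay between 0 and 0.298 CPM and Gm15222 between 0.306 and 1.02 CPM over all libraries, against at least 14.9 CPM for Bmp4. In the longest Bmp4 transcript, 3.17% of the windows of 43 bases, the read length, also occur in other genes.

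Of the inhibitory SMADs, Smad6 (ENSMUSG00000036867, chr9:63953076-64022059) fell without Thr and was not called without Cys, whereas Smad7 (ENSMUSG00000025880, chr18:75367529-75395935) fell in both starvations. Smad6 was scarce, at 1.98, 2.66 and 2.26 CPM in the unstarved, 2.19, 2.24 and 2.03 CPM in the Cys-starved and 0.735, 0.755 and 0.872 CPM in the Thr-starved libraries. The Thr-starved libraries were below all others and the other two groups overlapped. Smad6 fell 2.89-fold without Thr (log2 fold change -1.53, SE 0.17, edgeR adjusted p = 3.7e-08). With offsets for GC content and transcript length, its log2 fold change was -1.09 (edgeR adjusted p = 3.0e-06), against -1.41 for Id1. The Cys comparison gave a log2 fold change of -0.10 with an SE of 0.14 (edgeR adjusted p = 0.65), which allows for a change of either sign. The Smad6 values rest on raw counts of 36 to 161 per library, the fewest of any member. Of the 28226 values from 1 to 20 among all raw counts, 67.8% were even. Whether each count stands for a separate fragment was not tested.

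Smad7 was at 47.8, 47.8 and 45.4 CPM in the unstarved, 37.7, 34.8 and 37.6 CPM in the Cys-starved and 32.5, 33.0 and 32.4 CPM in the Thr-starved libraries. The unstarved libraries were the highest and the groups did not overlap. Smad7 fell 1.44-fold without Thr (log2 fold change -0.53, SE 0.040, edgeR adjusted p = 7.1e-11) and 1.28-fold without Cys (log2 fold change -0.36, SE 0.039, edgeR adjusted p = 1.7e-07). With offsets for GC content and transcript length, fitted per library, Smad7 kept a log2 fold change of -0.19 without Thr (edgeR adjusted p = 0.00018). Per length of exon, Smad7 mRNA exceeded Smad6 mRNA by 14.7 ± 2.22 times (SD, n = 3) in the unstarved, 12.1 ± 1.06 times in the Cys-starved and 29.6 ± 2.82 times in the Thr-starved libraries. The ratio was thus highest without Thr, where Smad6 had the larger fold decrease.

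The 3 Id genes did not move together. Id1 fell in both starvations, Id2 rose without Thr and Id3 rose without Cys. Id1 (ENSMUSG00000042745, chr2:152736251-152737410) was at 52.1, 53.9 and 53.4 CPM in the unstarved, 35.1, 39.4 and 41.1 CPM in the Cys-starved and 18.2, 17.3 and 21.1 CPM in the Thr-starved libraries. The groups followed each other without overlap, with the Thr-starved libraries lowest. Id1 fell 2.80-fold without Thr (log2 fold change -1.48, SE 0.060, edgeR adjusted p = 1.0e-15) and 1.38-fold without Cys (log2 fold change -0.46, SE 0.055, edgeR adjusted p = 6.3e-07).

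Id2 (ENSMUSG00000020644, chr12:25093799-25097140) was at 22.4, 24.0 and 21.8 CPM in the unstarved, 20.5, 21.4 and 20.9 CPM in the Cys-starved and 30.5, 29.4 and 33.5 CPM in the Thr-starved libraries. The Thr-starved libraries were the highest, and each Cys-starved library was just under the lowest unstarved one. Id2 rose 1.37-fold without Thr (log2 fold change 0.46, SE 0.051, edgeR adjusted p = 5.1e-08). The Cys comparison gave a log2 fold change of -0.12 (SE 0.053, edgeR adjusted p = 0.088), which passed the threshold only when the deposited size factors replaced TMM (-0.16, edgeR adjusted p = 0.020).

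Id3 (ENSMUSG00000007872, chr4:136143497-136145755) was at 16.0, 15.0 and 16.6 CPM in the unstarved, 20.9, 19.7 and 23.0 CPM in the Cys-starved and 16.8, 16.8 and 17.5 CPM in the Thr-starved libraries. Here the Cys-starved libraries stood above both other groups, whose values adjoined. Id3 rose 1.33-fold without Cys (log2 fold change 0.42, SE 0.058, edgeR adjusted p = 5.5e-06). Without Thr the log2 fold change was 0.10 (SE 0.060, edgeR adjusted p = 0.15), and it was called with the GC and length offsets (0.20, edgeR adjusted p = 0.0051).

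Summed per length of exon (RPKM, the TMM-scaled CPM per kilobase of exon), Id1, Id2 and Id3 mRNA together came to 64.0 ± 0.839 RPKM in the unstarved, 53.6 ± 3.28 RPKM in the Cys-starved and 38.5 ± 2.80 RPKM in the Thr-starved libraries (SD, n = 3). Id1 made up 71.6% ± 0.311 of this sum in unstarved cells, 61.9% ± 1.60 without Cys and 42.1% ± 1.31 without Thr. The share of Id2 was 14.6% ± 0.649, 16.0% ± 0.857 and 33.1% ± 0.167 in the same order. The share of Id3 was 13.9% ± 0.777, 22.1% ± 1.45 and 24.7% ± 1.18. Without Thr the share of Id2 was larger than that of Id3 by the group means, and without Cys it was smaller. These shares depend on the exon length given to each gene, and Id1 exceeded Id3 in unstarved cells 5.18-fold by the union of exons but 3.69-fold by the longest transcript.

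**Figure D2:**
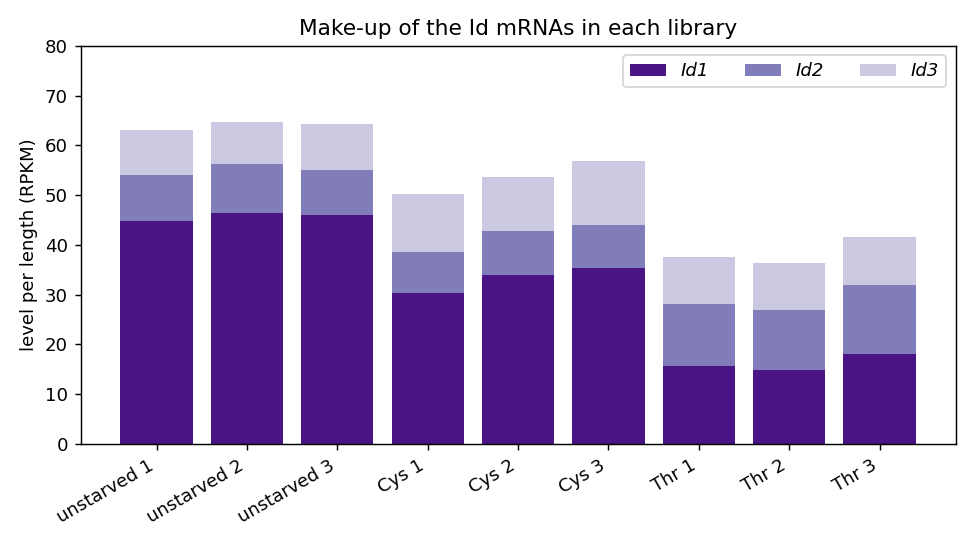
Stacked levels per length (RPKM) of Id1, Id2 and Id3 mRNA in each of the 9 libraries, with 1 bar per library from 0. The Id1 segment shrinks from 45.8 ± 0.8 RPKM in the unstarved to 33.2 ± 2.7 RPKM in the Cys-starved and 16.2 ± 1.7 RPKM in the Thr-starved libraries (mean ± SD, n = 3), while the Id2 segment is tallest without Thr.

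In the Nodal branch, the ligand and its inhibitors moved apart without Thr. Nodal (ENSMUSG00000037171, chr10:61417972-61425338) was at 33.3, 32.8 and 34.0 CPM in the unstarved, 27.6, 27.4 and 26.1 CPM in the Cys-starved and 42.95, 40.5 and 43.5 CPM in the Thr-starved libraries. The groups did not overlap, and the unstarved libraries lay between the starved ones. Nodal rose 1.27-fold without Thr (log2 fold change 0.35, SE 0.040, edgeR adjusted p = 8.9e-08) and fell 1.23-fold without Cys (log2 fold change -0.30, SE 0.041, edgeR adjusted p = 3.6e-06). The direct comparison gave 1.57-fold more Nodal mRNA in Thr-starved than in Cys-starved cells (log2 fold change 0.65, SE 0.041, edgeR adjusted p = 2.9e-12).

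Tdgf1 (ENSMUSG00000032494, chr9:110939603-110946158), the co-receptor gene, was the most abundant member. It was at 336, 322 and 327 CPM in the unstarved, 232, 233 and 231 CPM in the Cys-starved and 304, 299 and 300.3 CPM in the Thr-starved libraries. The Cys-starved libraries were lowest and the groups did not overlap. Tdgf1 fell 1.41-fold without Cys (log2 fold change -0.50, SE 0.022, edgeR adjusted p = 8.0e-14) and 1.09-fold without Thr (log2 fold change -0.12, SE 0.022, edgeR adjusted p = 3.8e-05). The second value became -0.26 with the GC and length offsets. In its longest transcript, 14.3% of the windows of 43 bases also occur elsewhere, in the pseudogenes Tdgf1-ps1 and Tdgf1-ps2. Tdgf1-ps1 was itself listed at 67.9 ± 1.15 CPM in the unstarved, 47.4 ± 0.960 CPM in the Cys-starved and 61.0 ± 0.939 CPM in the Thr-starved libraries, and how reads were divided between the 2 genes is uncertain.

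The genes of the NODAL inhibitors were lower in both starvations. Lefty1 (ENSMUSG00000038793, chr1:180935022-180938400) was at 10.4, 8.77 and 8.66 CPM in the unstarved, 6.62, 5.46 and 7.40 CPM in the Cys-starved and 4.39, 3.88 and 4.77 CPM in the Thr-starved libraries. All starved libraries were below the unstarved ones, and the Thr-starved ones were lowest. Lefty1 fell 2.12-fold without Thr (log2 fold change -1.08, SE 0.11, edgeR adjusted p = 7.6e-09) and 1.43-fold without Cys (log2 fold change -0.52, SE 0.10, edgeR adjusted p = 0.00028).

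Lefty2 (ENSMUSG00000066652, chr1:180893108-180899103) was at 15.8, 13.0 and 14.1 CPM in the unstarved, 8.95, 7.25 and 7.06 CPM in the Cys-starved and 7.82, 7.40 and 8.94 CPM in the Thr-starved libraries. The starved groups overlapped each other, and both were below the unstarved libraries. Lefty2 fell 1.76-fold without Thr (log2 fold change -0.82, SE 0.091, edgeR adjusted p = 4.7e-08) and 1.84-fold without Cys (log2 fold change -0.88, SE 0.090, edgeR adjusted p = 6.8e-08). The 2 Lefty genes lie on the same stretch of chromosome 1 and share sequence. Of the windows of 43 bases in the longest transcript, 20.5% of those of Lefty1 and 13.6% of those of Lefty2 occur elsewhere, for Lefty1 in Lefty2 and for Lefty2 mainly in Lefty1, so their separate levels are uncertain to that extent.

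Set against its inhibitors per length, Nodal mRNA exceeded Lefty1 mRNA by 3.04 ± 0.313 times (SD, n = 3) in the unstarved, 3.55 ± 0.626 times in the Cys-starved and 8.21 ± 0.551 times in the Thr-starved libraries. The lowest Thr-starved ratio was 7.65 and the highest Cys-starved one 4.21. For Nodal over Lefty2 the ratios were 2.92 ± 0.263, 4.38 ± 0.475 and 6.58 ± 0.444 in the same order. Bmp4 over Nodal went the other way, from 1.87 ± 0.0503 in the unstarved and 1.94 ± 0.0323 in the Cys-starved to 0.341 ± 0.024 in the Thr-starved libraries, so that the order of the 2 ligands turned without Thr. Tdgf1 over Nodal was 7.86 ± 0.197, 6.87 ± 0.177 and 5.69 ± 0.194. These ratios were described and not tested.

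In the direct comparison of the starvations, Bmp4 was 3.65-fold lower in Thr-starved than in Cys-starved libraries (log2 fold change -1.87, SE 0.045, edgeR adjusted p = 1.9e-19). Smad6 was 2.704-fold lower (-1.44, SE 0.17, edgeR adjusted p = 1.1e-07) and Id1 2.03-fold lower (-1.02, SE 0.061, edgeR adjusted p = 1.3e-12). Over the alternative runs listed below, the value of Smad6 ran from -1.53 to -1.01. Lefty1 was 1.48-fold lower (-0.56, SE 0.11, edgeR adjusted p = 0.00012) and Id3 1.24-fold lower (-0.31, SE 0.058, edgeR adjusted p = 5.9e-05). Besides Nodal, Id2 was 1.49-fold higher (0.58, SE 0.051, edgeR adjusted p = 1.4e-09) and Tdgf1 1.298-fold higher (0.38, SE 0.022, edgeR adjusted p = 1.1e-12), the latter at 0.23 with the GC and length offsets. Lefty2 gave 0.06 with an SE of 0.096 (edgeR adjusted p = 0.58). Smad7 was called 1.12-fold lower (-0.17, SE 0.040, edgeR adjusted p = 0.00092), but with the GC and length offsets it was called higher (0.18, edgeR adjusted p = 0.00024), so its direction between the starvations is not settled.

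**Figure D3:**
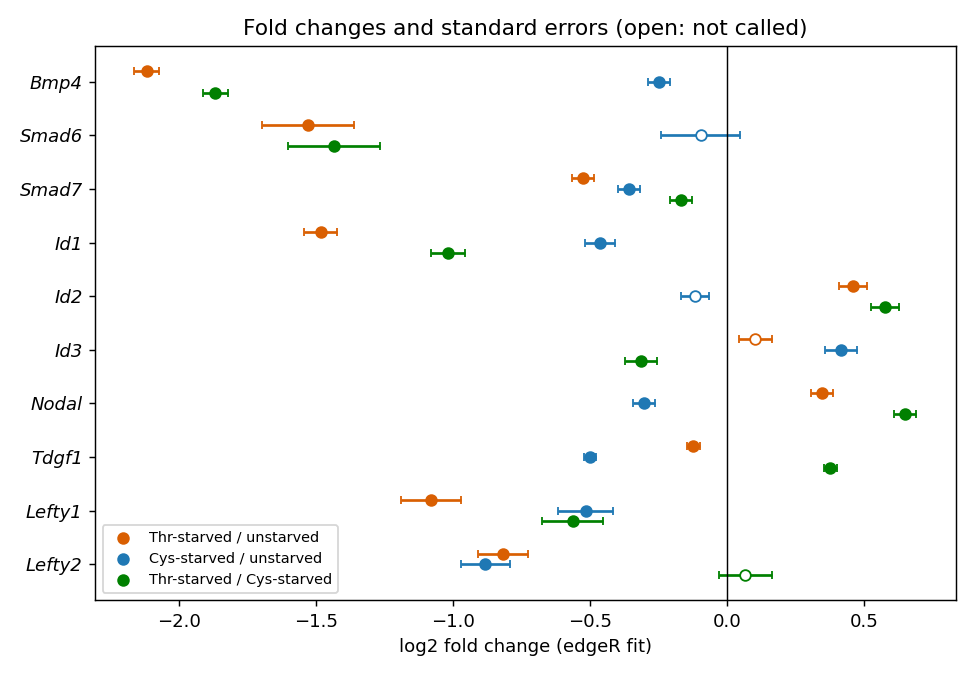
Log2 fold changes of the 10 members with their standard errors from the edgeR fit, for Thr-starved against unstarved (orange), Cys-starved against unstarved (blue) and Thr-starved against Cys-starved libraries (green), where open points were not called at an adjusted p of 0.05. Bmp4, Smad6 and Id1 lie far left for Thr and between -0.10 and -0.46 for Cys, and Nodal lies on opposite sides of 0.

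Levels between genes can be set side by side per length. In unstarved cells the order was Tdgf1 at 125 ± 2.8 RPKM, Id1 at 45.8 ± 0.8, Bmp4 at 29.8 ± 1.3, Nodal at 15.9 ± 0.29, Smad7 at 10.4 ± 0.31, Id2 at 9.31 ± 0.46, Id3 at 8.87 ± 0.44, Lefty2 at 5.48 ± 0.53, Lefty1 at 5.27 ± 0.54 and Smad6 at 0.719 ± 0.11 RPKM (SD, n = 3). Id2 and Id3 overlapped between libraries, as did the 2 Lefty genes, and the other neighbours did not. Without Cys, Id3 moved up to 11.8 ± 0.95 RPKM and overlapped Nodal at 12.9 ± 0.38 RPKM. Without Thr, Nodal was second at 20.2 ± 0.77 RPKM behind Tdgf1, and Bmp4 was seventh at 6.87 ± 0.22 RPKM, below Smad7 at 7.22 ± 0.073 RPKM.

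Of 67 other genes of the pathway (ligands, receptors, SMADs and partners, inhibitors and convertases, further targets and E proteins), 61 were in the table. Without Thr, 25 rose and 23 fell, with a median log2 fold change of -0.07. Without Cys, 14 rose and 10 fell, with a median of 0.04. Between Thr-starved and Cys-starved libraries 21 were higher and 24 lower. These shares are read against the 63.0%, 36.3% and 62.0% of all genes called. The genes named next are the 4 with the largest fold changes in each direction and comparison, among those that averaged 5 CPM or more.

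Among 11 other ligand genes, 3 rose and 5 fell without Thr, and 2 fell and 9 were not called without Cys. Inhbb, which encodes an activin subunit, was at 64.5 ± 1.2 CPM in the unstarved, 63.4 ± 1.9 in the Cys-starved and 27.3 ± 2.2 CPM in the Thr-starved libraries. It fell without Thr (log2 fold change -1.24, SE 0.044, edgeR adjusted p = 1.2e-16). Tgfb1, the gene of TGF-beta 1, fell without Thr (-0.95, SE 0.068, edgeR adjusted p = 3.1e-11) and without Cys (-0.32, SE 0.064, edgeR adjusted p = 0.00032). Gdf3, the gene of a NODAL-related ligand and chosen after its values were seen, had the same directions as Nodal, up without Thr (0.38, edgeR adjusted p = 3.5e-12) and down without Cys (-0.24, edgeR adjusted p = 5.7e-08).

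Of 13 receptor and co-receptor genes, 5 rose and 4 fell without Thr, and 5 rose and 1 fell without Cys. Acvr2a, a type II receptor gene for activin and NODAL, was at 13.8 ± 0.58 CPM in the unstarved, 19.1 ± 0.45 in the Cys-starved and 30.5 ± 1.4 CPM in the Thr-starved libraries. It rose without Thr (log2 fold change 1.13, SE 0.051, edgeR adjusted p = 5.8e-15) and without Cys (0.46, SE 0.052, edgeR adjusted p = 2.7e-07). Acvr1, a type I receptor gene of the BMP branch, also rose without Cys (0.46, SE 0.079, edgeR adjusted p = 6.2e-05).

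Of 11 genes for SMADs and nuclear partners, 4 rose and 6 fell without Thr, and 2 rose and 2 fell without Cys. Between the starvations, 1 was higher and 8 were lower in Thr-starved than in Cys-starved libraries. Smad3, a transducer of the Nodal branch, went from 17.8 ± 0.38 CPM in the unstarved and 18.1 ± 0.58 CPM in the Cys-starved to 5.39 ± 0.076 CPM in the Thr-starved libraries (log2 fold change without Thr -1.72, SE 0.061, edgeR adjusted p = 1.0e-16). Its partner Foxh1 rose from 39.7 ± 1.9 CPM in unstarved to 81.9 ± 0.54 CPM in Thr-starved libraries (1.05, SE 0.035, edgeR adjusted p = 3.2e-17). Smad3 and Foxh1 thus moved in opposite directions without Thr. Smad2, which encodes the other transducer of this branch, was chosen after its values were seen. It went from 69.5 ± 2.7 CPM in the unstarved to 60.3 ± 1.3 CPM in the Thr-starved libraries (log2 fold change -0.21, SE 0.034, edgeR adjusted p = 1.5e-05). Zfp423, a partner of SMAD1 in BMP responses, fell from 79.9 ± 2.6 to 29.9 ± 0.25 CPM without Thr (-1.42, SE 0.034, edgeR adjusted p = 1.0e-19). Ski, a SMAD corepressor gene, was lower with Thr than with Cys starvation (-0.84, SE 0.032, edgeR adjusted p = 4.3e-16).

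Of 14 genes for inhibitors and convertases, 6 rose and 5 fell without Thr and 2 rose and 3 fell without Cys. Fst, the gene of the activin antagonist follistatin, rose from 5.11 ± 0.21 CPM in the unstarved to 7.61 ± 0.64 in the Cys-starved and 19.6 ± 1.4 CPM in the Thr-starved libraries. Its log2 fold change was 1.94 without Thr (SE 0.076, edgeR adjusted p = 5.9e-16) and 0.58 without Cys (SE 0.082, edgeR adjusted p = 7.0e-06). Chrd, the gene of the BMP antagonist chordin, rose without Thr (0.63, edgeR adjusted p = 3.6e-07) and fell without Cys (-0.32, edgeR adjusted p = 0.0043). Twsg1, whose product binds BMPs and chordin, was higher in Thr-starved than in Cys-starved libraries (0.88, SE 0.041, edgeR adjusted p = 1.7e-14). Pcsk6, a convertase gene, fell without Cys (-0.49, SE 0.041, edgeR adjusted p = 2.7e-09), as did Fstl1, a follistatin-like gene (-0.56, SE 0.049, edgeR adjusted p = 6.2e-09).

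Of 9 further target genes, 5 rose and 2 fell without Thr and 3 rose and 2 fell without Cys. Id4, the remaining Id gene, rose without Cys (log2 fold change 0.62, SE 0.11, edgeR adjusted p = 8.5e-05) and without Thr (0.67, edgeR adjusted p = 1.2e-05), unlike Id1. Gata2, a target of BMP signalling in other tissues, rose without Thr (1.24, SE 0.094, edgeR adjusted p = 7.2e-11). Of the 3 E protein genes, all given after their values were seen, Tcf3 fell without Thr (-0.39, edgeR adjusted p = 9.9e-11), and Tcf4 and Tcf12 rose in both starvations. Fst, Acvr2a, Acvr1, Chrd, Id4, Pcsk6 and Tcf12 overlap genes on the opposite strand. Pcsk6, Tcf4 and Tcf12 overlap genes on their own strand. The part of the overlapping genes in these values was not tested.

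**Figure D4:**
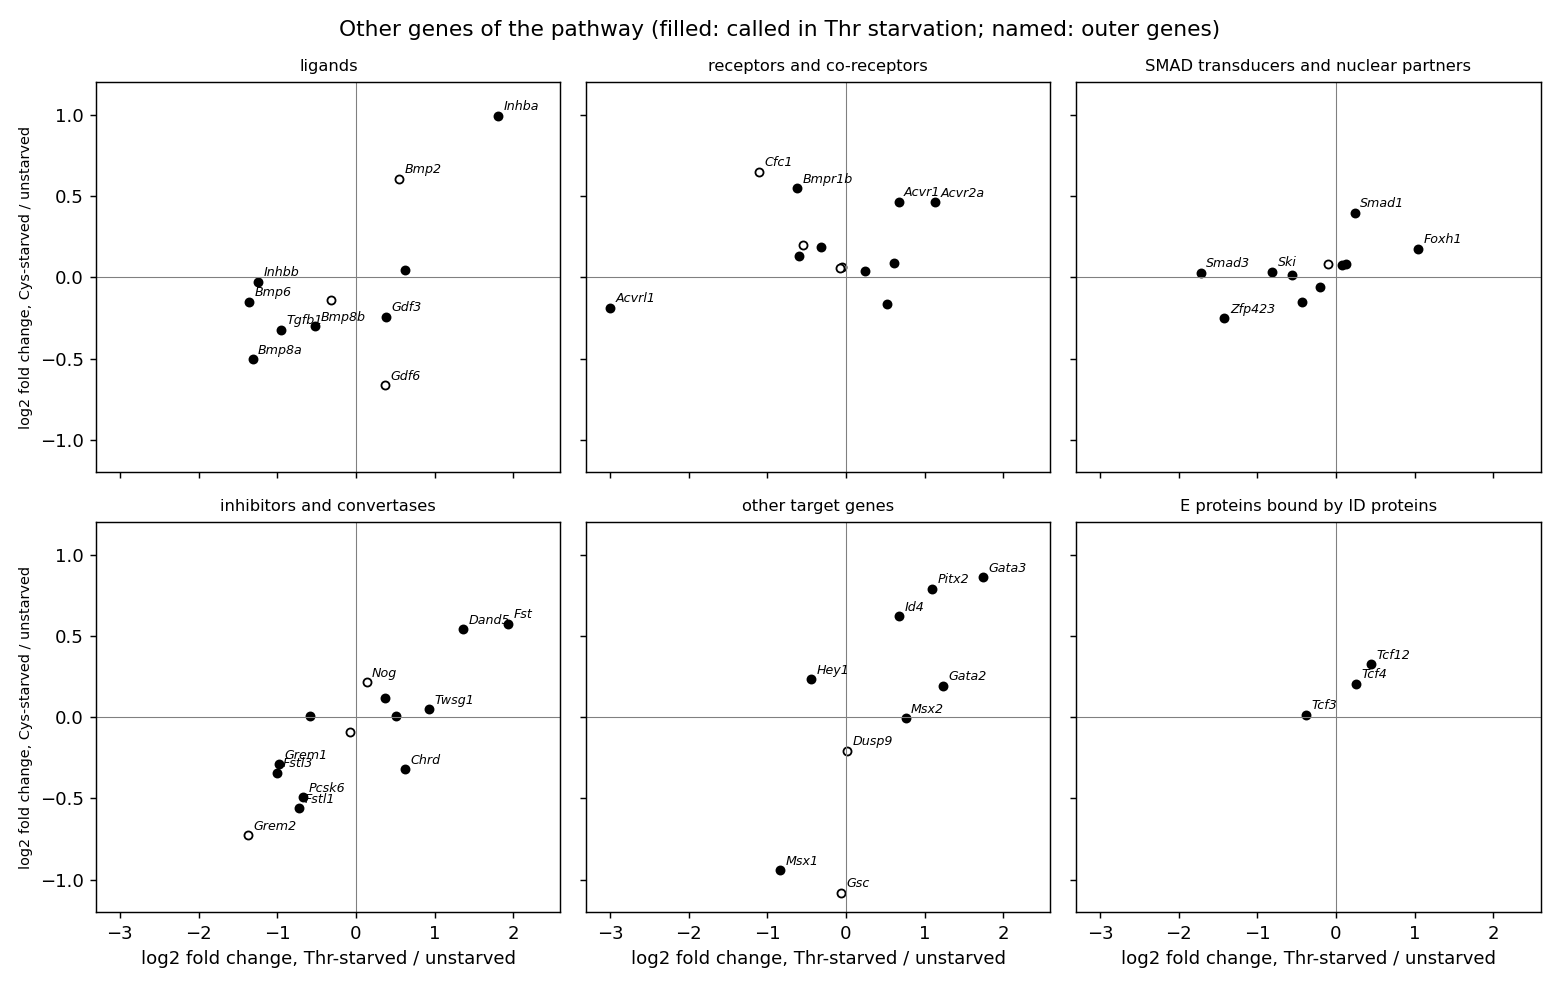
Log2 fold changes of the 61 other pathway genes in 6 groups by role, Thr-starved against unstarved on the x axis and Cys-starved against unstarved on the y axis, filled where called without Thr. Both axes share the unstarved libraries, so a slope of the points is no result. Inhba, far right with a mean of 0.50 CPM, and Acvrl1, farthest left with a mean of 0.38 CPM, are under the minimum of 5 CPM for naming genes and were picked out after their values were seen.

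As a description of pattern, the genes whose log2 level followed a member most closely over the 9 libraries were listed by Pearson correlation among the 11410 genes with at least 5 CPM. Bmp4 was closest to Mat2a and Xbp1 (both r = 0.999), and 1703 genes reached an r of 0.95 with it. For Smad6 they were Hes6 and Fsd1, for Smad7 Cers5 and Znhit1, and for Id1 the ribosomal protein genes Rps15a and Rpl18 (both r = 0.998). For Id2 they were Wdr82 and Polr2g, for Nodal Gm6722 and Rala, for Tdgf1 Gpx1 and Abcc5, and for Lefty1 Psmb10 and Padi2. Id3 had the rarest pattern, with Tefm (r = 0.974) and Ttl (r = 0.958) closest and 5 genes at 0.95 or above. The points share 3 groups, so high values are common.

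Libraries held from 54294288 to 61459894 in the unstarved, from 57700492 to 62657358 in the Cys-starved and from 48763102 to 74962733 counts in the Thr-starved group. The summed level of 8 ES cell markers was 3873 to 3925 CPM in the unstarved, 3763 to 3803 CPM in the Cys-starved and 3936 to 4010 CPM in the Thr-starved libraries. The sum hides opposite changes, since without Thr 4 of the 8 rose and 4 fell (log2 fold changes from -1.69 to 0.85), and without Cys 3 rose and 5 fell (-0.32 to 0.26). The 4 of 5 mesoderm markers in the table, which include Nodal targets, came to 6.07 to 7.79, 5.65 to 6.43 and 3.04 to 3.25 CPM in the same order, and 5 of 6 extra-embryonic endoderm markers to 5.51 to 6.23, 7.93 to 9.26 and 5.60 to 6.04 CPM. Without Thr, 2 of the 4 mesoderm markers fell and 2 were not called, and of the 5 endoderm markers 3 rose and 1 fell. The 5 of 6 fibroblast markers came to 13.9 to 14.4, 13.2 to 15.9 and 10.6 to 11.3 CPM, and the 4 neural markers to 209.7 to 215, 256 to 259 and 137 to 138 CPM. Without Thr, 2 of the 5 fibroblast markers fell and 3 were not called, while 2 of the 4 neural markers rose and 1 fell. The 1 that fell, Tubb3 (log2 fold change -1.28), is outside the rule for naming genes and overlaps Gm20388 on its own strand. Without Cys, all 4 neural markers rose, and of the 5 endoderm markers 3 rose and 2 were not called. Of the fibroblast and of the mesoderm markers, 1 each fell without Cys and the rest were not called. No marker in the table was at 0 throughout a group, and the part of such cells in the results was not tested. Mitochondrially encoded genes took 0.443% to 0.765% of counts over the 9 libraries.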

How the data were processed

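The authors mapped reads of both ends to GRCm38 with STAR 2.7.4a and deposited raw counts per gene from HTSeq, whose strand and overlap settings are not given in the sources used here. The second table deposited by the authors holds a signal, the same counts divided by 1 DESeq2 size factor per library. Arg and Leu starvation was not analysed here.

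Counts of all 9 libraries were fitted in R 4.3.3 with edgeR 4.0.16 (TMM, quasi-likelihood test, 3 group means, genes with at least 1 count, 20143 genes). Benjamini-Hochberg adjustment ran over all genes, and genes with an adjusted p of 0.05 or less were called. The common biological coefficient of variation was 3.53%. Levels are TMM-scaled CPM, and RPKM over the exon union of GENCODE M21. Correlations used log2(CPM + 0.5). Python 3.11.15 made the tables.

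Alternatives were DESeq2 1.42.0, RLE, the deposited size factors, filterByExpr, at least 10 counts in every library, thinned counts, only the groups compared, a stricter threshold of 0.01, offsets for GC content and length, a replicate block, and leaving out each library.

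The members and gene lists were chosen with earlier results of these data known. Named were all members, in each comparison the 4 pathway genes called higher and the 4 called lower with the largest fold changes at a mean of at least 5 CPM, and the 2 genes most like each member, which for Lefty2 are not reported here. Genes outside this rule are marked in the text.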

Additional observations from a re-analysis of the deposited data

How the results depend on the processing

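Of 480 alternative values for single members, 472 kept their direction and their side of the threshold. The 8 others were as follows. With GC and length offsets Id3 was called without Thr (0.20), also with the replicate block added (0.20), and Smad7 turned to 0.18 between the starvations (0.19 with the block). Id2 was called without Cys when the deposited size factors were used (-0.16). Without Cys, Smad6 turned to 0.020 with thinned counts and ran from -0.199 to 0.023 with 1 library left out (0.023 without unstarved replicate 2). Lefty2 between the starvations ran from -0.028 (without Thr-starved replicate 3) to 0.18. None of these Smad6 and Lefty2 values was called. The causes were not tested.

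The number of members called stayed at 9 to 10 without Thr, 8 to 9 without Cys and 9 between the starvations under every alternative run. With any 1 library left out it stayed at 9, 8 and 9. Correlations of same-numbered deviations from the group means ran from -0.244 to 0.106. These values cannot decide whether same-numbered libraries were prepared together, which the labels do not say. With the replicate block, 9, 8 and 9 members were called. With the longest transcript in place of the exon union, the Id1 to Id3 ratio was 3.69 in unstarved, 2.01 in Cys-starved and 1.22 in Thr-starved libraries. The deposited size factors moved the share of higher calls without Cys over all genes from 48.2% to 36.8%. Smad6, at 36 to 161 raw counts, is the member most limited by depth.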
